A study of Mus musculus with 11 samples.

Results

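The imprinted growth-control genes described here are 10 genes that mouse cells transcribe mainly from the maternal or mainly from the paternal copy, taken by gene name from the deposited count table: *H19*, *Igf2*, *Igf2r*, *Cdkn1c*, *Peg3*, *Mest*, *Dlk1*, *Meg3*, *Grb10* and *Plagl1*. Counts of entries that carry the same name were summed, which gave 24849 genes, and 8 of the 10 members had a row. *H19* and *Meg3*, the noncoding RNAs of the *Igf2* and *Dlk1* domains, had no row under their name and were not analysed here; of 12731 RefSeq long noncoding RNA symbols, 0 had a row, against 21880 of 21900 protein-coding symbols. The libraries are of polyadenylated RNA from AML12, a non-tumour mouse hepatocyte line that was derived from mice carrying a human TGF-alpha transgene. In the 4 KO libraries the *Txndc5* gene, which encodes a disulfide isomerase of the endoplasmic reticulum, was cut by CRISPR/Cas9 in the fifth exon and recombined with a puromycin resistance cassette, and resistant cells were selected; the labels call this genotype a knockdown. For the 4 KI libraries (genotype TXNDC5 Knockin) the labels give TXNDC5 as overexpressed from the ROSA26 locus. The 3 WT libraries, labelled 5-6, 7 and 8, are of unedited AML12 cells. It is not stated whether the edited cells are 1 clone or several, whether the WT cells were exposed to puromycin, or whether libraries of a group came from separate cultures, so the p-values measure only the spread between these libraries, which may be technical.

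Imprinted genes keep a parental mark, DNA methylation at a control region, through every cell division, and they lie in clusters in which a single control region acts on several neighbours. Many act on growth in pairs of opposites: paternally expressed *Igf2* promotes fetal growth, whereas the maternally expressed *Igf2r* and *Cdkn1c* restrain it. In the liver most of this network is active in the fetus and is switched down after birth.

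*Txndc5* itself had 287 to 430 counts in the KO libraries, 3299 to 4046 in the WT and 5344 to 6723 in the KI libraries. It was lower in the KO than in the WT libraries (log2 fold change -3.81, adjusted p = 4.09e-08). This and every adjusted p below come from the quasi-likelihood test of edgeR after Benjamini-Hochberg adjustment. In the libraries labelled KI it was 0.24 higher than in the WT on the log2 scale, which did not pass the test (adjusted p = 0.136). The KI and WT libraries did not overlap for *Txndc5*, as was the case for 44.6% of all tested genes. Whether the counts cover the knocked-in sequence was not tested. Total counts per library were between 29840366 and 38422243, so that 3 counts, taken as the floor of detection, were at most 0.101 CPM, the count scaled to the size of the library. After the TMM scaling used for the levels below, 3 counts were at most 0.133 CPM, in WT 5-6. All 8 hepatocyte markers were above that floor in each group. Their summed level was 8918 to 10779 CPM in the KO, 5374 to 7142 in the WT and 7714 to 9166 in the KI libraries. In KO against WT *Alb* (log2 fold change 2.99), *Apoa1* (3.77), *Hnf4a* (1.35) and *Apob* (0.66) were higher and *Ttr* (-0.93) was lower. Of all tested genes 26.7% were higher and 28.4% lower. *Krt8*, *Krt18* and *Cdh1* did not pass. In KI against WT *Alb* was lower (-1.06), whereas *Apob* (1.21), *Krt18* (0.86) and *Krt8* (0.62) were higher. Of 9 mesenchymal markers, *Col1a2*, *Col3a1*, *Pdgfrb*, *Lrat* and *Thy1* were at or under 3 counts in every library. The sum of all 9 ranged from 1173 to 1287 CPM in the KO, 684 to 894 in the WT and 690 to 798 in the KI libraries. It came almost wholly from *Vim*, with means of 1226, 766 and 747 CPM. *Col1a1*, *Acta2* and *Des* had group means of at most 0.522 CPM. The 6 blood and endothelial markers summed to 1.32 to 2.1 CPM in the KO, 6.59 to 9.12 in the WT and 2.52 to 5.72 in the KI libraries, with *Adgre1* and *Tek* at or under 3 counts in every library, and *Ptprc* (log2 fold change -3.45) and *Cd68* (-1.98) were lower in KO against WT. Of 5 fetal hepatocyte markers, *Gpc3* and *Epcam* had 0 counts in every library. In KO against WT *Afp* (1.05) and *Krt19* (0.49) were higher and *Sox9* (-0.47) was lower. The calls for *Afp* and *Sox9* each ended in 5 of 15 alternatives. In KI against WT *Afp* was higher (1.94), and *Krt19* and *Sox9* did not pass. The part of all these marker lists in the results below was not tested.

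Of the 8 members with a row, 3 were expressed at a level that could be compared in all lines, and each of these 3 had its own pattern. *Peg3* was 17.4-fold lower in the KO than in the WT libraries, *Igf2r* was highest there, and *Cdkn1c* was close to absent in the KI libraries. *Igf2*, *Mest*, *Grb10*, *Plagl1* and *Dlk1* had at most 21 counts in any library.

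*Peg3* encodes a large zinc-finger protein, expressed from the paternal copy, that is known for its part in growth and maternal behaviour. It had 1419, 1560, 1594 and 2209 counts in KO 5, 6, 7 and 8, which is 39.9, 46.3, 48.0 and 51.0 CPM after TMM scaling. The WT libraries 5-6, 7 and 8 had 14039, 19692 and 27248 counts (621, 788 and 962 CPM), and KI 5, 6, 7 and 8 had 41622, 35481, 56189 and 30764 counts (1167, 981, 1468 and 936 CPM). All 4 KO libraries were far below every other library, and the WT and KI libraries overlapped, with WT 8 above KI 8.

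The mean ± SD of *Peg3* was 46.3 ± 4.70 CPM over the 4 KO libraries, 790 ± 170 over the 3 WT libraries and 1138 ± 241 over the 4 KI libraries. By mean level only 162 of the 24849 genes were above *Peg3* in the WT and 65 in the KI libraries, against 4108 in the KO libraries. Against the WT, *Peg3* was 17.4-fold lower in the KO libraries (log2 fold change -4.12, standard error 0.17, adjusted p = 6.18e-08), and 227 of 13359 tested genes had a lower log2 fold change. Against the KI libraries it was 24.5-fold lower (log2 fold change -4.62, standard error 0.15, adjusted p = 9.08e-12). Both comparisons use the same KO libraries, and in both the groups did not overlap. In these cultures of a line, fewer cells with the transcript and less transcript per cell cannot be told apart.

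Between the KI and WT libraries the log2 fold change of *Peg3* was 0.52 (standard error 0.20) and missed the threshold (adjusted p = 0.0564). This value depended on the setting: it passed in 6 of 15 alternatives, among them without WT 8 (0.68, adjusted p = 0.00914), without KI 8 (0.60, adjusted p = 0.0414) and with DESeq2 (0.49, adjusted p = 0.0249).

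**Figure D1:**
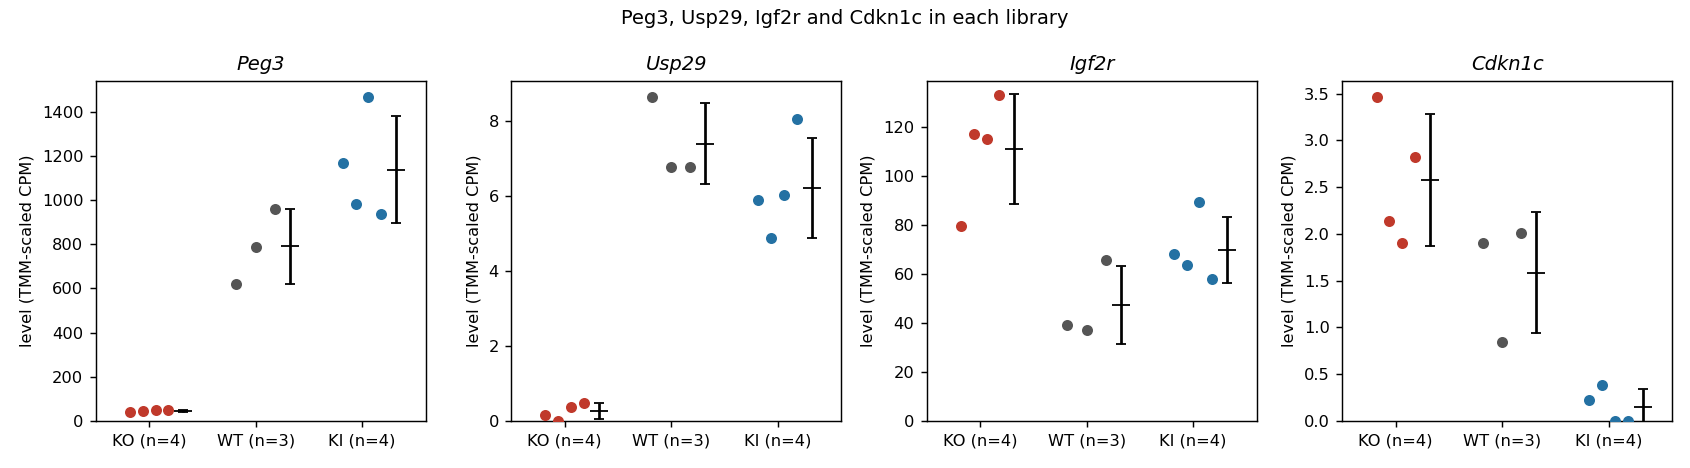
Level of *Peg3*, *Usp29*, *Igf2r* and *Cdkn1c* in TMM-scaled CPM (vertical axes, linear, from 0) in each KO, WT and KI library (points), with the mean and SD of each group beside them. *Peg3* (39.9 to 51.0 CPM) and *Usp29* (0 to 0.48 CPM) are lowest in the 4 KO libraries, *Igf2r* is highest there, and *Cdkn1c* is near 0 in the 4 KI libraries.

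*Usp29*, a paternally expressed ubiquitin protease gene, starts next to *Peg3* in the opposite direction, and was the only other gene of the *Peg3* domain that could be tested. It had 0.17, 0, 0.36 and 0.48 CPM in KO 5, 6, 7 and 8 and 8.63, 6.76 and 6.78 CPM in the WT libraries. In KI 5, 6, 7 and 8 it had 5.89, 4.87, 6.03 and 8.04 CPM. The KO libraries were again below all others, and the KI libraries overlapped the WT libraries. It was lower in the KO than in the WT libraries (log2 fold change -4.55, standard error 0.53, adjusted p = 4.3e-05) and than in the KI libraries (-4.30, adjusted p = 1.11e-06), while KI and WT differed by -0.26 (adjusted p = 0.337). *Zim1*, another zinc-finger gene of the domain, had at most 5 counts in any library.

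The 2 genes start 164 bases apart in RefSeq on GRCm38.p6, and the stretch between them that no RefSeq model of either gene reaches is shown here because both genes read away from it and both were low in the KO libraries. It lies at chr7:6730463-6730558, is written 5′ to 3′ on the minus strand, the strand of *Peg3*, and its 3 CpG dinucleotides, the bases that DNA methylation acts on, are in capitals.
Peg3-Usp29: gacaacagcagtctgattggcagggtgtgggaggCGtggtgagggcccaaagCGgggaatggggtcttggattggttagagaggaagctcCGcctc
In the window from 250 bases before to 50 bases after the start, *Peg3* had 13 CpG and *Usp29* 17, and these windows share 263 bases. Of 32851 such RefSeq windows, which had a median of 7 CpG, 37.9% had at least as many as *Peg3*. For comparison, *Igf2r* had 34 CpG in its window (7.73% of windows had as many or more), and the first of the *Grb10* windows had 45 (1.93%). Methylation was not measured in these libraries, and 8 of the 10 members could be matched to a window.

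Most of the other genes around *Peg3* on chromosome 7 were not lower in the KO libraries. Of the 6 nearest tested genes on its *Zfp28* side, *Epn1* (0.70), *Zfp787* (0.34), *Zfp444* (0.49) and *Zfp78* (1.45) were higher in the KO than in the WT libraries on the log2 scale. *Zfp667* was lower (-0.94), and *Zfp28* was at 0.21 and did not pass. On the other side, beyond *Usp29*, *Zfp773* (3.15), *Zfp418* (1.61) and *Clcn4* (0.82) were higher, whereas *Zfp954* (0.34) and *Zfp772* (0.25) did not pass. *Zfp667* was at -0.07 in KO against KI (adjusted p = 0.883), where *Peg3* and *Usp29* were lower. The wider chromosome went the other way: over the 943 tested genes of chromosome 7 the median log2 fold change of KO against WT was 0.52, with 53.2% of genes higher and 10.3% lower, against a median of -0.03 over all tested genes.

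**Figure D2:**
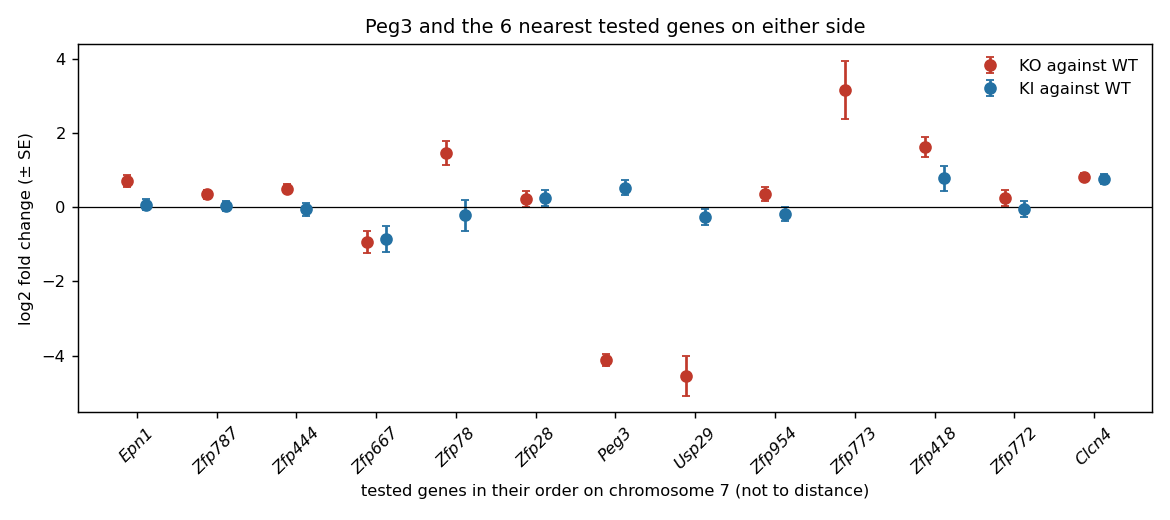
Log2 fold change with its standard error (vertical axis) of *Peg3* and the 6 nearest tested genes on either side in the KO (red) and KI (blue) libraries against the same WT libraries, in gene order and not to distance. *Peg3* (-4.12) and *Usp29* (-4.55) stand far below their neighbours in the KO libraries.

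*Igf2r* encodes the cation-independent mannose 6-phosphate receptor, which carries lysosomal enzymes and takes up IGF2 for degradation. Its counts were 2832, 3943, 3808 and 5750 in KO 5, 6, 7 and 8 (79.6, 117, 115 and 133 CPM) and 886, 927 and 1862 in WT 5-6, 7 and 8 (39.2, 37.1 and 65.7 CPM). KI 5, 6, 7 and 8 had 2434, 2297, 3416 and 1909 counts (68.3, 63.5, 89.2 and 58.1 CPM). Every KO library was above every WT library, whereas the KI libraries overlapped both other groups: WT 8 was above KI 6 and KI 8, and KI 7 was above KO 5.

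The mean ± SD of *Igf2r* was 111 ± 22.4 CPM over the 4 KO libraries, 47.3 ± 16.0 over the 3 WT libraries and 69.8 ± 13.6 over the 4 KI libraries. It was 2.29-fold higher in the KO than in the WT libraries (log2 fold change 1.20, standard error 0.22, adjusted p = 0.00101), and higher in the KO than in the KI libraries (0.67, standard error 0.15, adjusted p = 0.00176). KI against WT gave 0.55 on the log2 scale (standard error 0.21) with an adjusted p of 0.0498, just under the threshold, and the call ended in 8 of 15 alternatives. It ended without WT 5-6 (0.43, adjusted p = 0.168), WT 7 (0.40, adjusted p = 0.214), KI 5 (0.56, adjusted p = 0.0871), KI 6 (0.59, adjusted p = 0.07) or KI 7 (0.41, adjusted p = 0.146), and with the replicate number as a block (0.62, adjusted p = 0.0618).

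The noncoding RNA *Airn* runs antisense from within *Igf2r*, and *Peg3os* lies antisense to *Peg3*. The cDNA was primed with random hexamers and nothing states that strand was kept, so reads of these RNAs cannot be told apart from those of the genes they overlap. A second table entry named *Igf2r* held 0 to 75 counts in a library, and is included in the sums.

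Among the 6 nearest tested genes on either side of *Igf2r* on chromosome 17, *Mrpl18* (0.02 in KO against WT) and *Tcp1*, next on 1 side, did not pass in any comparison. *Map3k4*, next to *Igf2r* on the other side, was at 0.30 in KO against WT (adjusted p = 0.225) and was higher in KO against KI (0.40, adjusted p = 0.0211). *Acat2*, a thiolase gene, was higher than in the WT in the KO (0.87) and in the KI libraries (1.08). *Qk*, an RNA-binding protein gene (0.70), and *Acat3* (0.48) were higher in the KO than in the WT libraries. The median log2 fold change over the 624 tested genes of the chromosome was 0.13 in KO against WT.

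*Cdkn1c* encodes p57, an inhibitor of cyclin-dependent kinases that is expressed from the maternal copy. It was a low transcript, with 123, 72, 63 and 122 counts in KO 5, 6, 7 and 8 (3.46, 2.14, 1.90 and 2.82 CPM) and 43, 21 and 57 in WT 5-6, 7 and 8 (1.90, 0.84 and 2.01 CPM). KI 5 and KI 6 had 8 and 14 counts (0.22 and 0.39 CPM), and KI 7 and KI 8 had 0. All 4 KI libraries were below all others, and the KO and WT libraries overlapped, since KO 7 was not above WT 8.

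The mean ± SD of *Cdkn1c* was 2.58 ± 0.704 CPM over the 4 KO libraries, 1.58 ± 0.647 over the 3 WT libraries and 0.153 ± 0.189 over the 4 KI libraries. It was lower in the KI than in the WT libraries (log2 fold change -2.93, standard error 0.80, adjusted p = 0.0106), and 162 of 13534 tested genes had a lower log2 fold change. It was higher in the KO than in the KI libraries (3.66, standard error 0.63, adjusted p = 0.000165), where 126 of 13269 genes had a higher one. KO and WT differed by 0.65 (standard error 0.36, adjusted p = 0.149), which passed only with scaling by library totals (1.03, adjusted p = 0.0354). The related kinase inhibitor genes, which are not imprinted, stayed in a narrower range: *Cdkn1b* (p27) did not pass in any comparison, and *Cdkn1a* (p21) was 0.71 higher in the KO than in the KI libraries on the log2 scale (adjusted p = 1.64e-06).

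Divided by the length of the gene's exons in GENCODE M21, which puts genes on the same scale, the mean level of *Peg3* was 59.3 CPM per kb in the WT libraries, that of *Igf2r* 5.09 and that of *Cdkn1c* 0.777. In the KO libraries the order of the first and second changed, with 3.47 CPM per kb for *Peg3* and 11.9 for *Igf2r*, followed by 1.26 for *Cdkn1c*. In the KI libraries they were 85.4, 7.50 and 0.075. The isoforms that these cells use were not measured, so the lengths are those of all annotated exons.

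Of the 3 members that could be tested in KO against WT, 2 were called, where 55.1% of all tested genes were: *Igf2r* was higher, as were 26.7% of all genes, and *Peg3* lower, as were 28.4%. In KI against WT 2 of 4 were called against a background of 42.3%, *Igf2r* higher (21.2% of all genes) and *Cdkn1c* lower (21.0%). In KO against KI 3 of 3 were called against 54.0%, with *Igf2r* and *Cdkn1c* higher (27.0% of all genes) and *Peg3* lower (27.0%). The groups did not overlap for *Peg3* and *Igf2r* in KO against WT, for *Cdkn1c* in KI against WT, and for *Peg3* and *Cdkn1c* in KO against KI, as was the case for 55.1%, 44.6% and 48.8% of all tested genes. With so few members these counts do not set the members apart from other genes; what the data give is the size and pattern of each gene. The first 2 of these comparisons share the 3 WT libraries. The median log2 fold change of the tested members was 0.65, 0.24 and 0.67 in the 3 comparisons, beside -0.03, -0.02 and 0.00 over all tested genes.

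*Igf2*, the fetal growth factor itself, was at the edge of detection. It had 6, 8, 3 and 4 counts in KO 5, 6, 7 and 8, 4, 0 and 0 in the WT libraries 5-6, 7 and 8, and 3, 0, 0 and 10 in KI 5, 6, 7 and 8. No group stood apart, and the gene did not pass the filter on low counts; without that filter its log2 fold changes had adjusted p-values of 0.569 or more.

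*Mest*, a paternally expressed gene for a hydrolase-like enzyme, had 7, 8, 0 and 3 counts in KO 5, 6, 7 and 8, 10, 5 and 6 in the WT libraries and 10, 12, 6 and 11 in KI 5, 6, 7 and 8. It entered only the test of KI against WT, where it gave -0.04 on the log2 scale (standard error 0.61, adjusted p = 0.968), a value that turned to 0.24 with scaling by library totals. The KO and WT libraries overlapped at this depth. Its neighbour *Copg2*, a vesicle coat gene that overlaps *Mest* on the other strand, had 55.0 to 63.6 CPM as group means and did not pass in any comparison.

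*Grb10*, which encodes an adaptor that damps signalling from the insulin and IGF1 receptors, had 0, 0, 0 and 2 counts in KO 5, 6, 7 and 8. The WT libraries 5-6, 7 and 8 had 3, 7 and 21 counts, and KI 5, 6, 7 and 8 had 0, 5, 9 and 18. The KO counts were below all WT counts and overlapped those of the KI libraries. *Grb10* failed the filter on low counts in every comparison; without the filter, KO against WT gave -2.59 on the log2 scale (standard error 0.95, adjusted p = 0.0369) and KO against KI -2.08 (adjusted p = 0.0901). Its neighbour *Ddc*, the gene of aromatic amino acid decarboxylase, had 0.393, 0.297, 0 and 0.0462 CPM in KO 5, 6, 7 and 8 and 2.52, 2.48 and 1.13 in the WT libraries. It was lower in the KO than in the WT (-3.13, adjusted p = 0.00405) and the KI libraries (-3.15, adjusted p = 0.000407).

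*Plagl1*, a zinc-finger regulator known to act on other imprinted genes, had 2 counts in KO 5 and 0 in the other 10 libraries. *Dlk1*, a Notch-related ligand of fetal liver and adipose precursors, had 0 counts in all 11 libraries, which allows at most 3 counts, or 1.01e-05% of the counts of a library. *Dio3*, at the other end of the *Dlk1* domain, encodes the deiodinase that inactivates thyroid hormone. It had 0 counts in all 4 KO libraries, 46, 17 and 54 in WT 5-6, 7 and 8, and 114, 115, 153 and 144 in KI 5, 6, 7 and 8. The 3 groups did not overlap. Against the floor of 3 counts in each KO library, *Dio3* in the KO libraries was lower by at least 17.1-fold compared with the WT and by at least 40.9-fold compared with the KI libraries (adjusted p = 0.000282 and 7.73e-08), and it was higher in the KI than in the WT libraries (log2 fold change 1.22, adjusted p = 0.0135). *Rtl1*, between *Dlk1* and *Dio3*, had at most 2 counts in a library.

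**Figure D3:**
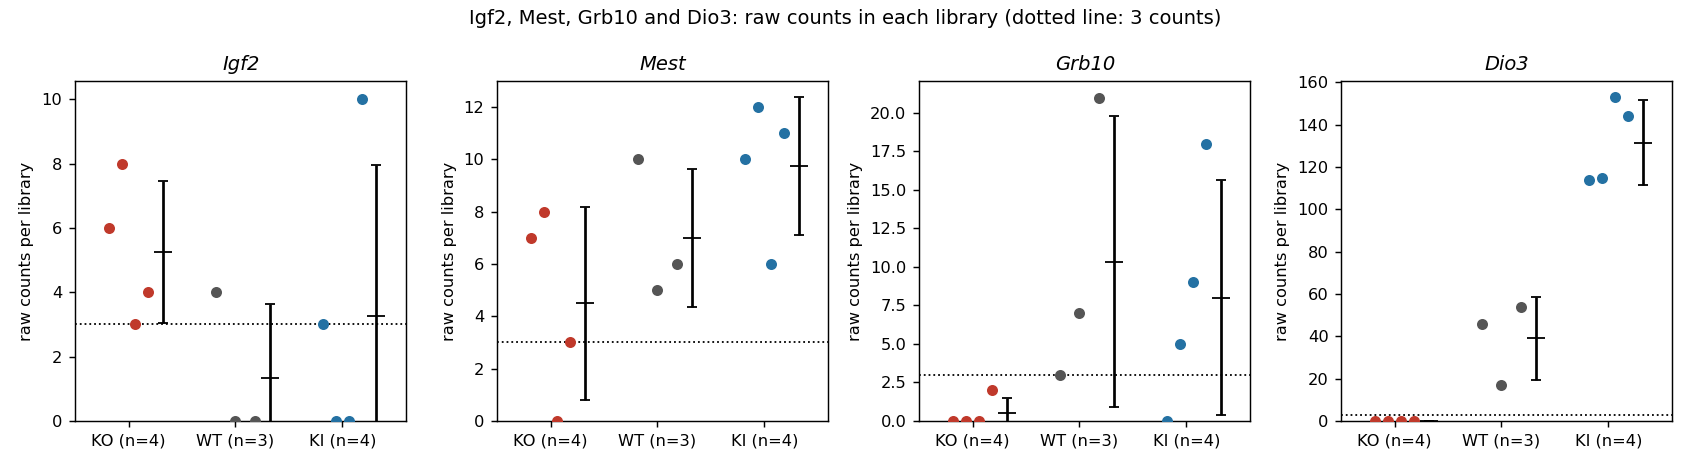
Raw counts per library (vertical axes, linear, from 0) of *Igf2*, *Mest*, *Grb10* and *Dio3* in the KO, WT and KI libraries (points), with the mean and SD of each group, cut at 0, and a dotted line at 3 counts. The first 3 genes have at most 21 counts, while *Dio3* goes from 0 in the KO to between 114 and 153 in the KI libraries.

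Genes of the imprinted domain of *Cdkn1c* on chromosome 7 took different courses. Which parental copy was read was not measured in these libraries, for these or any other genes. In KO against WT, *Phlda2* (1.35), which restrains placental growth, *Slc22a18* (1.21), a transporter gene, *Osbpl5* (1.65), a lipid-transfer protein gene, and *Tssc4* (0.61) were higher, while *Nap1l4*, *Cd81* and *Tspan32* did not pass. These genes lie on chromosome 7, where 53.2% of tested genes were higher in this comparison; the part of that shift in their values was not tested. In KI against WT, *Osbpl5* (1.40, adjusted p = 3.29e-05) and *Slc22a18* (0.61, adjusted p = 0.019) were higher, whereas *Cdkn1c* was lower, and *Phlda2* was at -0.12 (adjusted p = 0.872). The call for *Slc22a18* ended without WT 5-6, WT 7 or KI 7 (lowest value 0.49). In KO against KI, 5 of the 7 tested neighbours were higher, where 58.7% of the tested genes of chromosome 7 and 27.0% of all tested genes were, and *Cdkn1c* was at 3.66. *Phlda2* was highest (adjusted p = 0.00228) and *Osbpl5* lowest of the 5 (0.27, adjusted p = 0.0229), a call that ended in 5 of 16 alternatives, among them without KO 6, KO 8 or KI 6. *Ascl2* and *Ins2*, also of this part of the chromosome, had 0 counts in all libraries.

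Among 61 further imprinted genes, 54 had a row and 20 of these were at or under 3 counts in every library. In KO against WT 14 of 28 tested were called (against 55.1% of all tested genes), with a median log2 fold change of -0.05 beside -0.03. Of these, 8 were higher (26.7% of all genes) and 6 lower (28.4%). In KI against WT it was 10 of 28 (35.7%, against 42.3%), 5 higher (21.2% of all genes) and 5 lower (21.0%). In KO against KI it was 14 of 26 (53.8%, against 54.0%), 10 higher and 4 lower (27.0% of all genes each). *Phlda2*, *Slc22a18* and *Tssc4*, higher in KO against WT and in KO against KI, lie on chromosome 7. There 53.2% and 58.7% of tested genes were higher, and the part of that shift in these counts was not tested. The shares called lay near or below the background, while several single genes changed by a large factor.

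*Sgce*, the paternally expressed epsilon-sarcoglycan gene, was at or near 0 in both edited lines. It had 117, 141 and 107 counts in WT 5-6, 7 and 8, 0 in all 4 KO libraries and 10, 0, 0 and 6 in KI 5, 6, 7 and 8. The WT libraries were above all others. Compared with the WT, the KO libraries were lower in *Sgce* by at least 53.9-fold (adjusted p = 8.34e-06), and its log2 fold change in KI against WT was -4.81 (adjusted p = 7.27e-05). Its neighbours did not fall alike: *Pon2* was at 0.29 and *Pon3* at -0.28 in KO against WT, neither past the test.

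*Atp10a*, a lipid flippase gene, was higher than in the WT libraries in the KO (1.82, adjusted p = 3.95e-05) and in the KI libraries (1.69, adjusted p = 5.93e-05), with means of 17.3 ± 3.13 and 15.5 ± 2.78 CPM (SD, n = 4 each) against 4.73 ± 0.924 (SD, n = 3). *Zrsr1*, a splicing factor gene, was lower in both, at -1.43 and -1.37 on the log2 scale. Its host *Commd1*, a copper-handling gene, was lower in the KO libraries (-1.16, adjusted p = 0.00102). *Blcap* was higher in both lines (0.64 and 0.81), and *Impact* (0.68) and *Inpp5f* (0.72) were higher in the KO libraries. In KI against WT *Mcts2* (-0.85), *Pon3* (-0.53) and *Inpp5f* (-0.42) were lower. The calls for *Pon3* and *Inpp5f* ended with scaling by library totals. That for *Pon3* also ended without WT 7 or KI 6, and that for *Inpp5f* without WT 7, KI 6 or KI 7.

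**Figure D4:**
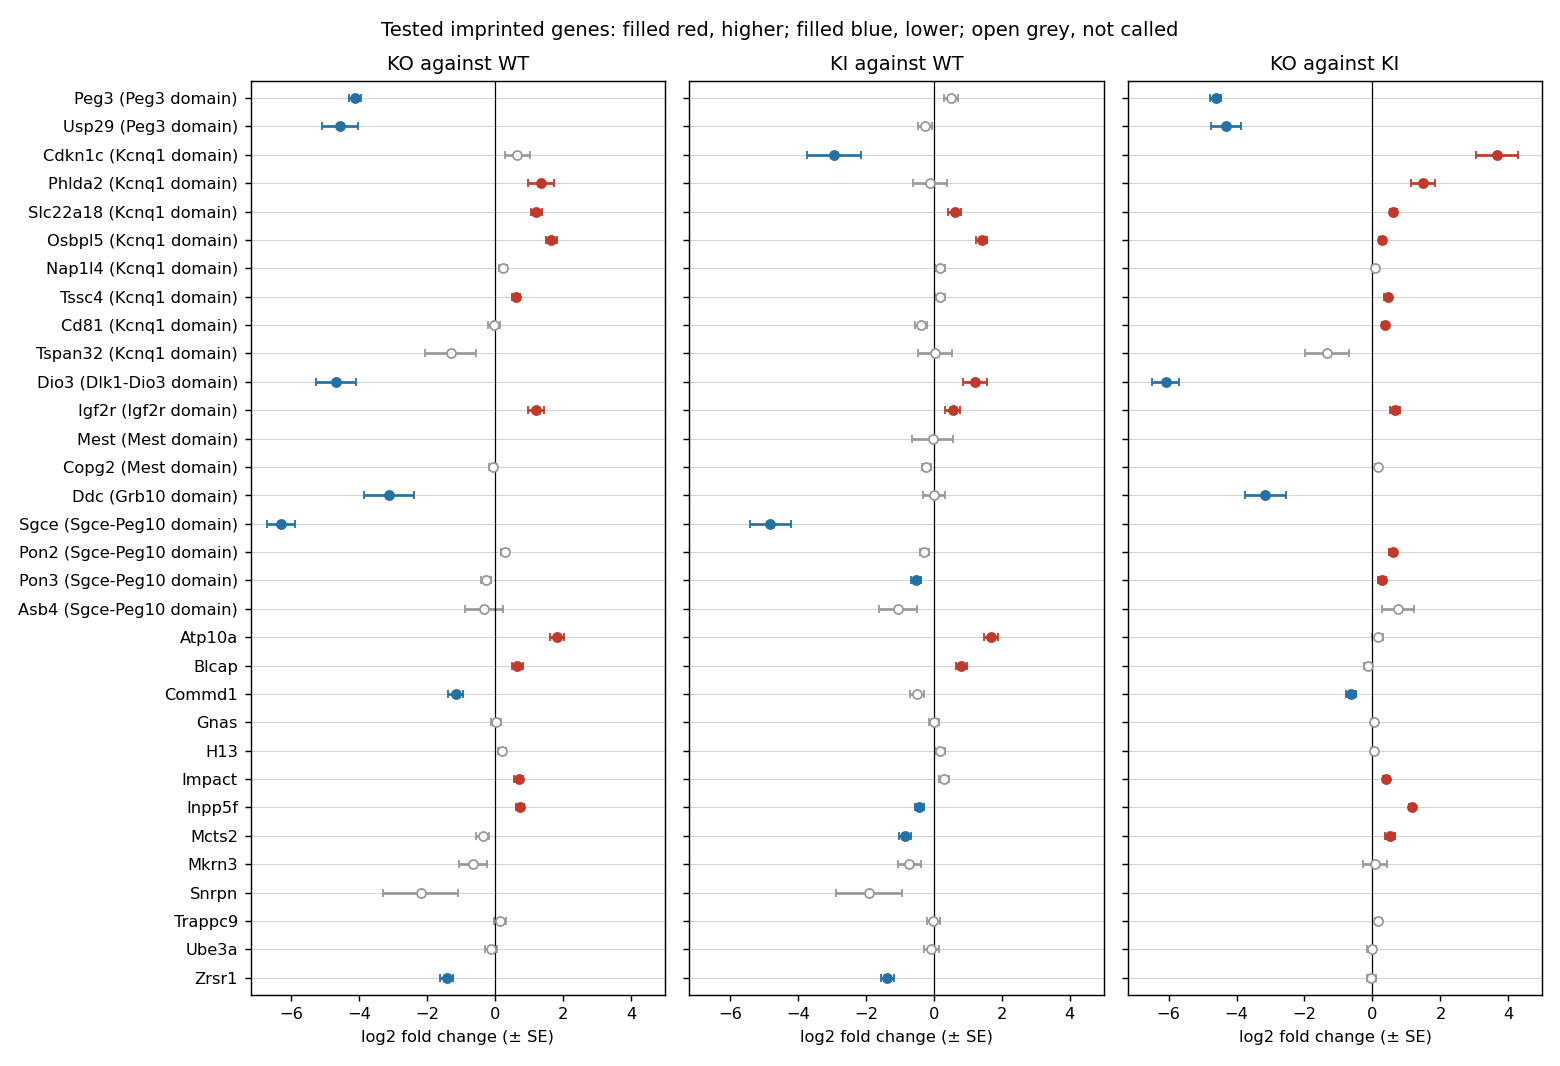
Log2 fold change with its standard error (horizontal axes) of the imprinted genes that were tested, by domain, in KO against WT, KI against WT and KO against KI; filled red points were called higher, filled blue points lower and open grey points were not called. *Peg3*, *Usp29*, *Dio3*, *Ddc* and *Sgce* lie furthest to the left in KO against WT, and *Cdkn1c* and *Sgce* in KI against WT.

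The machinery that keeps imprints was also compared. Of its 14 genes 10 were tested in KO against WT, and 5 were called, against 55.1% of all tested genes: *Uhrf1* (2.07, adjusted p = 5.31e-06), *Dnmt1* (1.48, adjusted p = 6.71e-05), *Trim28* (1.22) and *Ctcf* (0.81) were higher, and *Dnmt3a* was lower (-0.73, adjusted p = 0.00596). UHRF1 and DNMT1 copy methylation onto new DNA strands, TRIM28 is recruited by zinc-finger proteins to methylated control regions, CTCF binds unmethylated ones, and DNMT3A sets methylation anew. *Uhrf1* had a mean ± SD of 91.4 ± 14.8 CPM over the 4 KO libraries, 21.2 ± 3.63 over the 3 WT libraries and 56.0 ± 5.91 over the 4 KI libraries, and the groups did not overlap.

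In KI against WT 5 of 11 of these genes were called (45.5%, against 42.3% of all tested genes), all higher, as were 21.2% of all tested genes: *Uhrf1* (1.39), *Dnmt1* (1.35), *Trim28* (0.86), *Ctcf* (0.76) and *Tet1* (3.46, adjusted p = 0.00267), the last a gene whose product oxidizes methylated cytosine. *Tet1* had 24 to 79 counts in the KI libraries, at most 4 in the WT and at most 7 in the KO libraries. In KO against KI 5 of 11 were called (45.5%, against 54.0%): *Uhrf1* (0.71) and *Trim28* (0.38) were higher, and *Tet1* (-3.20), *Dnmt3a* (-0.88) and *Zfp57* (-0.46), a zinc-finger gene whose product binds methylated control regions, were lower. The medians over the tested genes were 0.16, 0.46 and 0.07 in the 3 comparisons. Scaled by library totals, *Dnmt3a* lost its call in KO against WT (-0.34).

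Partners of the members in the IGF, cell-cycle and Notch pathways were followed with a list of 29 genes, of which 24 were tested in each comparison. In KO against WT 11 were called, 6 higher and 5 lower (45.8%, against 55.1% of all tested genes). *Igf1*, the growth factor that shares the IGF1 receptor with IGF2, was lower (-3.16, adjusted p = 0.000914), with 0 to 6 counts in the KO, 33 to 36 in the WT and 34 to 52 in the KI libraries. The genes of the secreted binding proteins *Igfbp3* (-2.01), *Igfbp7* (-1.28) and *Igfbp4* (-0.89) were lower as well. *Igf2bp3* (1.57), whose product binds *Igf2* mRNA, and *Irs1* (0.81), a substrate of the insulin and IGF1 receptors, were higher.

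On the Notch side, *Dlk2*, the relative of *Dlk1*, was higher in KO against WT (1.16, adjusted p = 4.5e-05) and so was *Notch1* (1.09, adjusted p = 0.000392). *Dlk2* had 1584 to 2051 counts in the KO and 541 to 558 in the WT libraries, against 0 counts of *Dlk1*. *Notch4* was lower (-2.32, adjusted p = 0.0176), a call that ended without WT 7 or without WT 8. *Cdk2*, a kinase that p57 inhibits, was at 0.86, and *Cdkn1a* at 0.35 (adjusted p = 0.0237), the latter call ending without KO 5, KO 6, KO 8 or WT 7.

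In KI against WT 5 of the 24 partners were called (20.8%, against 42.3% of all tested genes). *Cdk4* (0.92), *Irs2* (0.90), *Cdk2* (0.83) and *Igf1r* (0.70, adjusted p = 0.0116) were higher, and *Cdkn1a* was lower (-0.33, adjusted p = 0.048). The call for *Igf1r* ended without WT 7, and that for *Cdkn1a* in 11 of 15 alternatives, including each of the 7 that left out a library. In KO against KI 15 of 24 were called (62.5%, against 54.0%), 7 higher and 8 lower. *Dlk2* (1.58), *Notch1* (1.44), *Igf2bp3* (1.26), *Plag1* (0.81) and *Cdkn1a* (0.71) were the highest, and *Igf1* (-2.98), *Notch4* (-2.57), *Igfbp3* (-2.39), *Igfbp7* (-1.59) and *Igf1r* (-0.97) the lowest. *Plag1*, a zinc-finger gene related to *Plagl1*, lost its call without KO 7, KI 5 or KI 6.

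**Figure D5:**
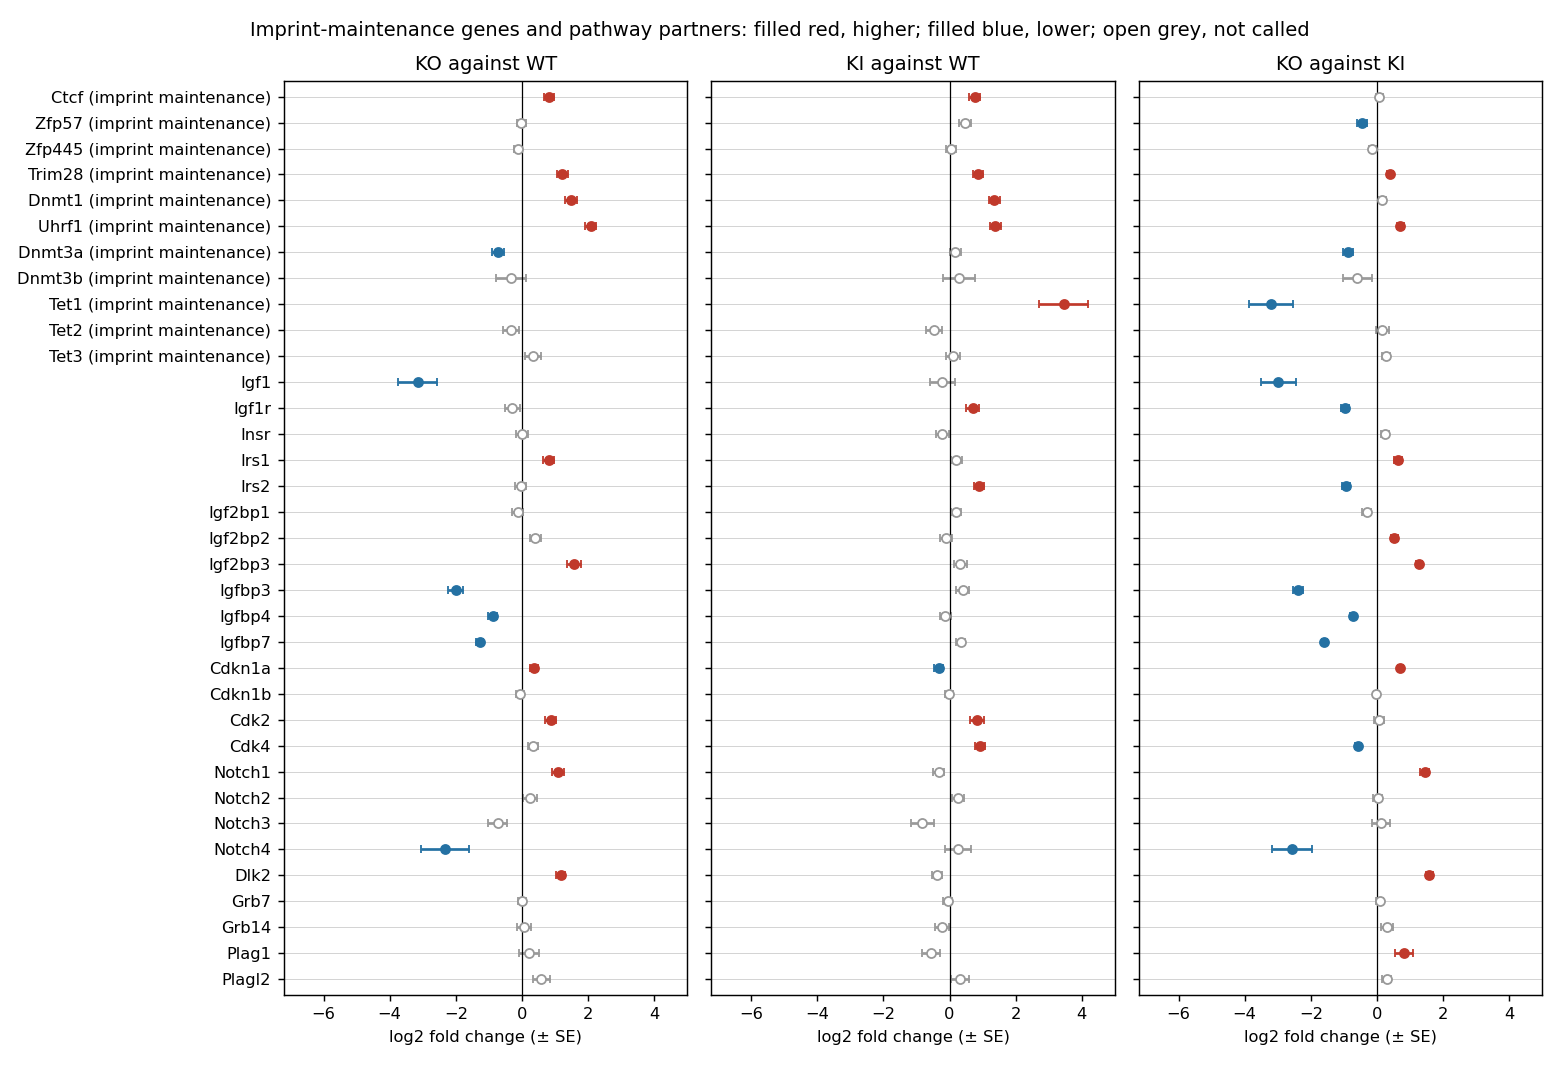
Log2 fold change with its standard error (horizontal axes) of the tested imprint-maintenance genes (upper rows, named as such) and pathway partners (lower rows) in the 3 comparisons; filled red points were called higher, filled blue points lower and open grey points were not called. *Uhrf1* and *Dnmt1* are higher than in the WT in both edited lines, and *Igf1*, *Notch4* and *Igfbp3* are lowest in KO against WT.

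Over the 11 libraries, the genes whose log2 CPM followed each member most closely were taken from the 13948 genes that passed the filter over all libraries. For *Peg3* these were *Tbc1d9* (r = 0.997), a GTPase-activating protein gene, *Il1r1* (r = 0.996), the interleukin-1 receptor gene, and *Havcr1* (r = 0.996), a gene known for its rise in injured kidney. *Tbc1d9* had a mean of 0 CPM in the KO, 16.1 in the WT and 28.1 in the KI libraries, the same order of groups as *Peg3*, and these genes lie on chromosomes 8, 1 and 11. For *Igf2r* they were *Tns2*, *Crybg1* and *Crtc3* (r = 0.980 each), and for *Cdkn1c* *Rgs19* (r = 0.983), *Nab1* (r = 0.965) and *Slc17a9* (r = 0.963). For *Mest*, with at most 12 counts in a library, *Dnah17* was nearest (r = 0.977). These correlations are descriptions over 3 groups of libraries from shared lines, in which a difference between groups alone gives a high r.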

How the data were processed

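Polyadenylated RNA of 4 KO, 3 WT and 4 KI libraries of AML12 cells was sequenced by a provider, and the authors deposited a table of raw read counts per gene, not normalized. The submitters' processing notes name HISAT2, TopHat2, Bowtie2 and StringTie; roles, versions and the genome build are not given in the sources used here. Of 26472 lines, 26462 were used and 10 broken lines left out; 2960 newly assembled entries carry no gene name. Deposited FPKM values, which had lost their decimal points, and columns of the authors' own DESeq2 comparisons were not used.

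Counts were summed by gene name. Genes were kept by edgeR's filterByExpr, scaled with TMM factors and compared by the quasi-likelihood test of edgeR (robust, prior count 2), with the libraries of the 2 groups compared. An adjusted p (Benjamini-Hochberg over all tested genes) under 0.05 was a call. Levels are CPM on 1 TMM scale over the 11 libraries. R 4.3.3, edgeR 4.0.16, DESeq2 1.42.0, limma 3.58.1, Python 3.11.15 and matplotlib 3.10.9 were used. Tested on simulated data, the test found 149 of 194 changed genes in KO against WT, 156 of 190 in KI against WT and 171 of 187 in KO against KI. There were 9, 5 and 8 false calls. The simulated comparisons held 13248, 13429 and 13190 tested genes, and all but the changed ones had no group difference. In the data themselves 42.3% to 55.1% of tested genes were called, so these figures do not show how the test behaves there. Total counts were 29840366 to 38422243 per library; the floor of 3 counts covers counting error only.

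The members and lists were chosen with earlier results of these data known. Named are all members, *Txndc5*, genes of a member's domain, the called genes with the largest change in each list (up to 5 per direction), and the 3 genes most like each member; genes of lists and neighbours named beyond that, and *Tbc1d9* as the example of likeness, were chosen after their values were seen. Neighbours follow the RefSeq order on GRCm38.p6, which also gave the promoter windows. Alternatives were other scalings, no filter, DESeq2, all 11 libraries in 1 fit, a replicate block, single table entries, leaving out 2 dominant newly assembled entries, and each library left out in turn. Same-numbered libraries did not vary together (r across 13948 genes between -0.19 and 0.214).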

Additional observations from a re-analysis of the deposited data

Results flagged for a closer look

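Of 23 groups of 4 libraries examined, 2 held a library that stood apart from the others by Dixon's ratio (gap divided by range), where chance gives about 1 in 20. For *Grb10* KO 8 had 2 counts and the other 3 KO libraries 0 (ratio 1), and for *Plagl1* KO 5 had 2 counts and the other 3 KO libraries 0 (ratio 1). Both are at or under the floor of 3 counts. With the other 3 libraries at 0, any count gives a ratio of 1, so the rate of 1 in 20 does not apply to these 2 groups.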

How the results depend on the processing

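*Peg3* and *Igf2r* in KO against WT, *Cdkn1c* in KI against WT, and all 3 genes in KO against KI kept their direction and call under each of the 15 or 16 alternatives, with log2 fold changes between -4.25 and -3.73, 1.07 and 1.58, -3.56 and -2.61, and, for KO against KI, -4.71 and -4.46 (*Peg3*), 0.57 and 0.82 (*Igf2r*) and 3.33 and 4.34 (*Cdkn1c*). The 2 members called in KI against WT became 1 with DESeq2 size factors, with the replicate block and with each table entry on its own, since *Igf2r* was at the threshold. They became 3 with library totals, without the filter, with DESeq2 and with all 11 libraries in 1 fit, and 1 to 3 with single libraries left out. *Mest* in KI against WT, not called in any setting, turned to 0.24 with library totals and lay between -0.20 and 0.33 with single libraries left out, above 0 without WT 5-6 or KI 7 (0.12); the cause was not tested. Library totals in place of TMM moved the median over all tested genes, on the log2 scale, from -0.03 to 0.38 in KO against WT and from -0.02 to 0.30 in KI against WT, and raised the other imprinted genes called in KO against WT from 14 to 19; these were 14 to 19 with single libraries left out. A newly assembled entry with the most counts held 11.3% to 17.1% of counts in the WT libraries and 4.32% to 9.12% in the others; leaving it and the next out gave 14.

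With the replicate number as a block, 8183 genes were called in KO against WT, 4891 in KI against WT and 6453 in KO against KI, in place of 7364, 5722 and 7171, and the members called were 2, 1 and 3. In the comparisons with the WT, the libraries numbered 5, 6 and 5-6 formed 1 block. The libraries share only a number, so no pairing was used. *Igf2*, *Grb10*, *Plagl1* and *Dlk1* did not pass the filter on low counts in any comparison, and *Mest* passed it only in KI against WT.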
